A study of Musca domestica with 8 samples.

Results

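Yolk proteins, eggshell proteins and vitellogenins of the housefly *Musca domestica* are described here, in 8 samples of adult flies. The members are all contigs of the deposited table, that is, assembled stretches of transcript, whose annotation names a yolk protein, yolk polypeptide, vitellogenin, vitelline or chorion. They were 38 of 35834 contigs. Single contigs were thus chosen by their annotation, but the topic was selected on measured values, because the counts of yolk and eggshell contigs had already been seen to differ between the samples. Levels across the samples are therefore given as a description with no test. Of the 38 members, 27 had a mean count of at least 5, 11 stayed under it and 2 of these had no counts in any sample. The 27 were kept partly because they were high in some samples, so counts over them are not counts over all members.

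The design text of the series also names a susceptible strain, but all 8 samples, No.1 to No.8, carry the label 791spin, a strain selected with spinosad, an insecticide that acts on the nicotinic acetylcholine receptor, from the multi-resistant strain 791a. Each label describes a pool of about 60 whole adults of both sexes, 5 to 7 days old and fed on sugar alone, and a normalized cDNA library, in which abundant transcripts had been reduced. The study's methods describe a single library from a single pool. No label gives the ratio of females to males in a sample or the stage of their ovaries, so no groups were compared and the samples are named by their numbers. The yolk protein sum below was higher in each even-numbered sample than in each odd-numbered one. Not every level below split the samples in this way. Whether even-numbered and odd-numbered samples differ in a condition that no label gives is not known. In whole flies, fewer cells of a type and less RNA per cell cannot be told apart.

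The contig counts of a sample summed to between 10266664 and 16115208. Levels are given as CPM, counts scaled to a sum of 1000000 in each sample, and as CPM per kilobase of contig (RPKM) where the levels of different yolk proteins are ordered. Shares of counts and counts per 100 yolk protein counts are not corrected for length and are compared between samples. A contig without counts could hold up to 3 counts, which correspond to 0.186 to 0.292 CPM. Intervals are exact 95% intervals for counting error only.

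Higher flies provision their eggs with yolk proteins, which are relatives of lipases and differ from the vitellogenins of most other egg-laying animals. In *Drosophila* these proteins are made by the female fat body and the follicle cells around the oocyte, and the oocyte takes them up by receptor-mediated endocytosis through clathrin-coated pits. The follicle cells then lay down the eggshell, first the vitelline membrane and afterwards the chorion, and the nurse cells load the oocyte with maternal RNAs that set up the axes of the embryo.

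Yolk proteins were named by 27 contigs with a summed length of 21439 bp, of which 25 had counts. YP1, YP2 and YP3, the yolk proteins matched to *M. domestica* itself, had 7, 2 and 10 contigs. Yolk protein A and yolk protein B were matched to other flies, mostly to the blowfly *Lucilia cuprina*, and had 4 contigs each. A contig carries the name of its best match, so contigs named A or B may hold parts of the same transcripts as those named YP1 to YP3. The sources used here do not say how reads that fit several of these related contigs were counted, and the split between them is uncertain.

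From No.1 to No.8, all yolk proteins together had 19.9, 205, 7.19, 2810.0, 126, 1827, 29.4 and 3934 CPM. The level was highest in No.8, No.4, No.6 and No.2, in this order, and the other 4 samples lay below them. The highest sample exceeded the lowest 547-fold (437 to 696), and 198-fold when No.3 was left out. No.2 stood closer to No.5 than to the other 3 samples of the upper group.

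YP1 had a lowest level of 0.172 CPM in No.7, a median of 40.9 and a highest level of 1273 in No.8. Its 2 counts in No.7 make the ratio of 7396 imprecise, with an interval of 2047 to 61074, and without No.7 the ratio was 554. YP2 ranged from 0 counts in No.3 to 937 CPM in No.8 with a median of 44.3 CPM, at least 3258-fold. YP3 never fell so far. Its lowest level was 4.60 CPM in No.3, its median 74.3 and its highest 1226 in No.8, a ratio of 267 (201 to 362).

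Yolk protein A had no counts in No.1, No.3 and No.7. No.5 and No.2 followed with 0.192 and 3.52 CPM, and No.6, No.8 and No.4 had 30.7, 109.6 and 136 CPM. It was the only one of the 5 yolk proteins that was higher in No.4 than in No.8, and its highest level was at least 474-fold above the lowest. Yolk protein B rested on 1 count in No.1 and in No.7 and 3 counts in No.3, and had 271 CPM in No.4 and 388 in No.8. The ratio of 6255 has an interval of 1122 to 247128. In all 5 yolk proteins each of No.4, No.6 and No.8 lay above each of No.1, No.3, No.5 and No.7. For YP3, No.2 broke the pattern, with 39.6 CPM against 109 in No.5.

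**Figure D1:**
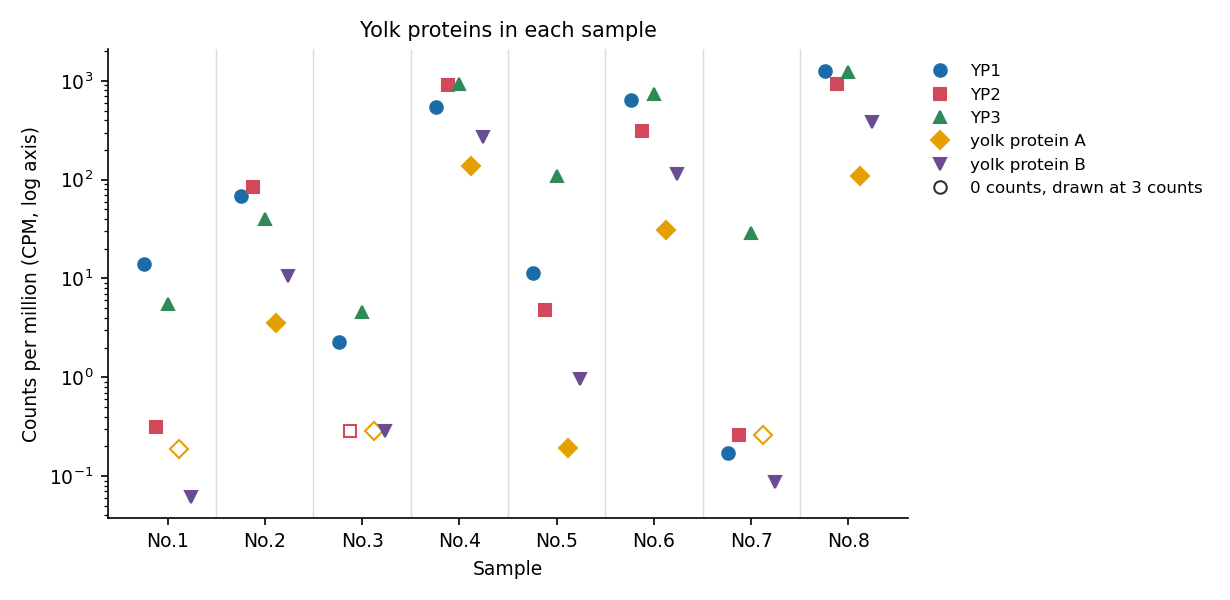
Level of the 5 yolk proteins in each of the 8 samples, in CPM on a log axis, where each symbol is 1 protein (the sum of its contigs) and an open symbol marks 0 counts and is drawn at the CPM of 3 counts. All 5 proteins are high in No.4, No.6 and No.8, and in No.5 and No.7 YP3 stands above the other proteins with 109 and 28.9 CPM.

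The composition of the yolk protein counts also differed between samples. In No.4, No.6 and No.8, which held 18759 to 43165 yolk protein counts each, YP1 took 19.5 to 34.7%, YP2 17.0 to 32.6% and YP3 31.2 to 40.4%. These are shares of counts, not of molecules, since the contigs of a protein differ in summed length. Per summed contig length YP3 was the lowest of the 3 housefly proteins in No.4 and No.6. In No.4 it had 107.8 RPKM against 145 for YP1 and 354 for YP2, and in No.6 84.5 RPKM against 168 and 120.2. The YP3 contigs sum to 8721 bp with a longest of 1491 bp, against 2590 and 1742 bp for YP2. This order therefore depends on the length taken. In No.5 YP3 took 86.2% (84.2 to 88.0) of 1314 counts and in No.7 98.2% (96.2 to 99.4) of 342 counts. In No.1 YP1 was the main protein with 70.3% (65.0 to 75.3) of 320 counts, while YP2 had 1.56%. In No.2 YP2 came first with 40.8% (39.0 to 42.5) of 2976 counts. The leading protein was the same per summed length in No.1, No.2, No.5 and No.7. The samples with few yolk protein counts therefore did not share 1 composition.

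**Figure D2:**
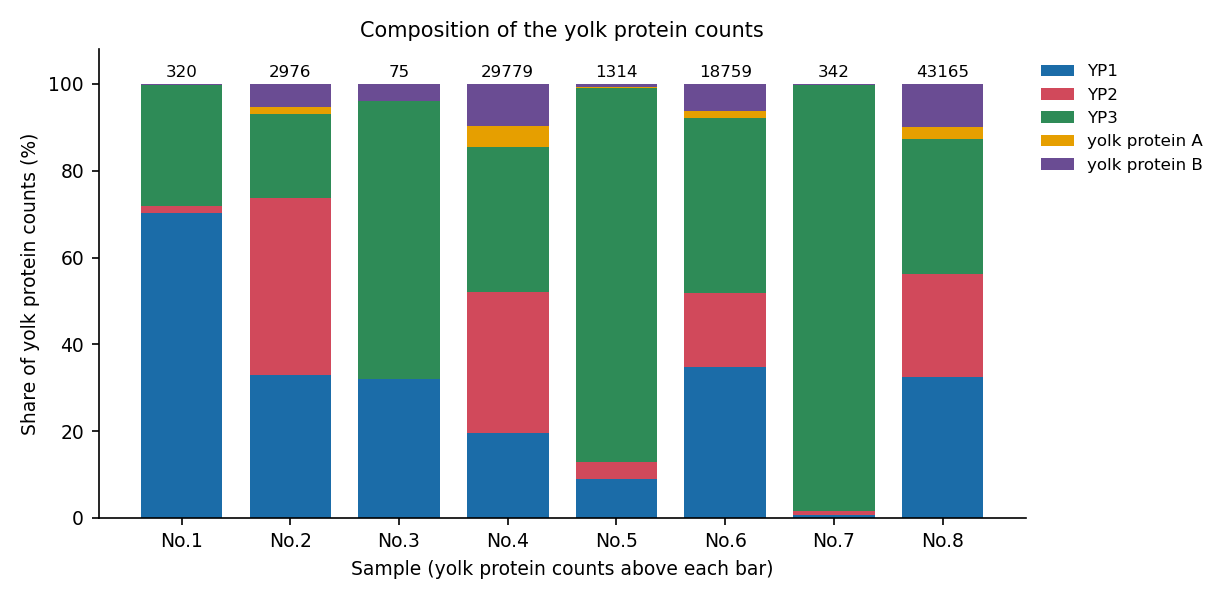
Share of each of the 5 yolk proteins in the yolk protein counts of a sample, in percent, with the number of these counts above each bar. YP1, YP2 and YP3 all have large shares in No.2, No.4, No.6 and No.8, whereas YP3 holds 86.2% of the counts in No.5 and 98.2% in No.7, and YP1 holds 70.3% in No.1.

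The order of the yolk proteins within a sample had not been used to choose them, and it was tested per length of contig. Mean levels were 109 RPKM for YP2, 84.5 for YP1, 44.3 for YP3, 23.9 for yolk protein B and 15.6 for yolk protein A. They use the summed length of the contigs of a protein, on which the order of YP1, YP2 and YP3 depends. The log2 ratio of each of the 10 pairs of proteins was computed in each sample, with 0.5 counts added, and tested over the 8 samples with a two-sided exact sign-flip permutation test, adjusted by the Benjamini-Hochberg method over the 10 pairs. Nothing in the labels says that the samples came from separate cultures, so the p-values measure only the spread between these samples, which may be technical.

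YP1 was higher than yolk protein A in 8 of 8 samples, by 3.81 ± 2.17 on the log2 scale (SD, n = 8; exact permutation p = 0.0078, adjusted 0.0156). YP1 also exceeded yolk protein B in 8 of 8 samples, by 2.89 ± 2.03. YP3 exceeded A by 3.87 ± 2.59 and B by 2.95 ± 2.46, each in 8 of 8 samples and each with the same exact permutation p, the smallest that 8 samples allow. The housefly YP1 and YP3 contigs thus carried more counts per length than those of A and B in every sample, but for YP1 the comparison in No.7 rests on 2 counts against 0 of A and 1 of B. These 4 differences kept their sign and stayed past the threshold when each sample was left out, when the longest contig gave the length and when only the most counted contig was taken.

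YP2 was higher than yolk protein A in 7 of 8 samples, by 2.84 ± 1.40 (exact permutation p = 0.0156, adjusted 0.0260). Only its most counted contig against that of A gave 1.34 (adjusted exact permutation p = 0.0911), and leaving out any 1 of the samples other than No.3 gave an adjusted exact permutation p of 0.0521. The exception, No.3, had 0 counts of YP2 and of A, so its ratio reflects only the added counts and the lengths. YP2 against yolk protein B missed the threshold, with 1.92 ± 1.74, higher in 7 of 8 samples (adjusted exact permutation p = 0.0558). It passed when No.3 was left out (2.50, adjusted exact permutation p = 0.0223), when 1 count was added in place of 0.5, and when only the most counted contigs were taken. In No.3, the sample where YP2 was lower than B, the comparison rests on 0 counts against 3. Yolk protein A was lower than B in 8 of 8 samples, by -0.92 ± 0.52 (adjusted exact permutation p = 0.0156). The most counted contigs alone gave a difference of 0.25 in the other direction (adjusted exact permutation p = 0.252). In No.1, No.3 and No.7 the comparison of A with B rests on 0 counts against 1 to 3.

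The 3 housefly proteins could not be ordered. YP1 over YP2 was 0.98 ± 2.55, YP1 over YP3 was -0.06 ± 2.72 and YP2 over YP3 was -1.03 ± 3.02, with adjusted exact permutation p-values of 0.469, 0.969 and 0.439 (SD, n = 8). The sign of YP1 over YP3 turned to 0.23 without No.5 and to 0.77 without No.7. With the length of the longest contig in place of the summed length, YP1 exceeded YP2 by 2.67 (adjusted exact permutation p = 0.0130) and YP2 lay below YP3 by -3.01 (adjusted exact permutation p = 0.0391). The samples with many yolk protein counts gave a narrower picture. In No.2, No.4, No.6 and No.8, chosen after the values were seen, YP2 exceeded YP3 by 1.60 ± 0.96 and YP1 exceeded YP3 by 1.17 ± 0.65, each in 4 of 4 samples and with no test. Both differences use the summed length. Over all 8 samples the longest contig as length moved YP2 over YP3 from -1.03 to -3.01, and this shift is the same in each sample. The order of YP2 and YP3 in these 4 samples therefore depends on the length taken.

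Contigs of the same protein did not keep a fixed ratio to each other. Most YP1 counts fell on M_dom_rep_c5690 (768 bp) with 169 ± 277 CPM, M_dom_rep_c13879 (784 bp) with 100.5 ± 136 CPM and M_dom_rep_c14365 (389 bp) with 36.3 ± 52.4 CPM (SD, n = 8). M_dom_rep_c5690 held 61.5% (60.3 to 62.7) of the YP1 counts in No.6 and 60.5% (59.6 to 61.3) in No.8, but 27.3% (26.2 to 28.5) in No.4. There M_dom_rep_c13879 came first with 47.5% (46.2 to 48.8), as it did in No.1 with 67.1% (60.6 to 73.2). M_dom_rep_c14365 had 18.2% of the YP1 counts in No.4 and 0.305% of 983 counts in No.2. No.4 thus differed from No.6 and No.8 in which YP1 contigs were counted, beyond counting error, although all 3 had high YP1.

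YP3 was read mainly from M_dom_rep_c5544 (1409 bp) with 210.1 ± 279.6 CPM, M_dom_rep_c32461 (533 bp) with 75.4 ± 97.0 CPM and M_dom_rep_c5775 (1491 bp) with 74.5 ± 114 CPM. M_dom_rep_c13516 (819 bp) had 16.6 ± 21.9 CPM, and the other 6 YP3 contigs had 0.05 to 8.35 CPM on average. M_dom_rep_c5775 held 32.0% (31.1 to 32.9) of the YP3 counts in No.4, 15.5% in No.8 and 12.8% in No.6, but 1.15% (0.612 to 1.95) in No.5 and 1 of 336 counts in No.7. In these last samples M_dom_rep_c5544 took 78.7% and 82.7%. The YP3 counts that remained in No.5 and No.7 were therefore mostly those of M_dom_rep_c5544 and M_dom_rep_c32461.

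**Figure D3:**
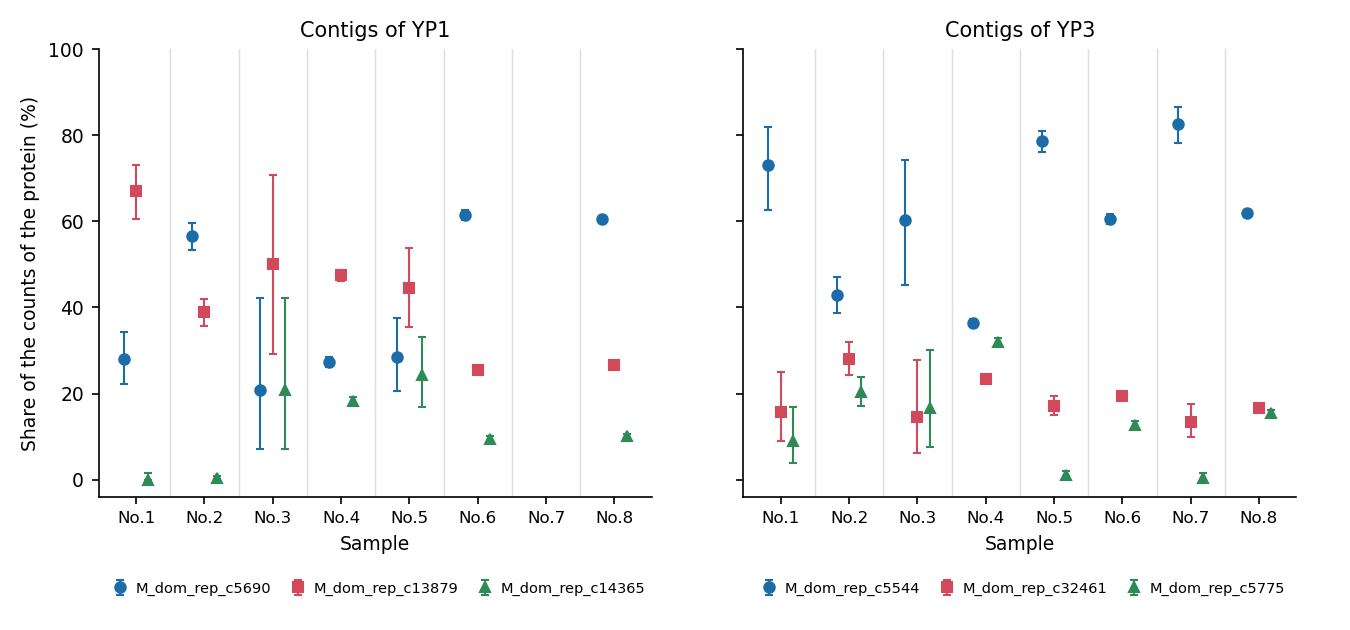
Share of the 3 most counted contigs of YP1 (left) and of YP3 (right) in all counts of that protein, in percent, in each sample, where bars are exact 95% binomial intervals for counting error. No.7 is left out for YP1 because it had 2 counts. M_dom_rep_c5690 has 27.3% of the YP1 counts in No.4 against 61.5% in No.6 and 60.5% in No.8, and M_dom_rep_c5775 has 32.0% of the YP3 counts in No.4 against 1.15% in No.5.

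The other yolk proteins rested on fewer contigs. YP2 was nearly all M_dom_rep_c6070 (1742 bp), the longest member, with 279.7 ± 409 CPM (SD, n = 8) and 99.1 to 100% of the YP2 counts in the 5 samples with at least 50 of them. Yolk protein A was read mainly from M_dom_rep_c16766 (497 bp), with 30.8 ± 49.2 CPM. Yolk protein B was spread over M_dom_rep_c11891 with 50.3 ± 84.5 CPM, M_dom_rep_c5624 with 18.5 ± 29.0, M_dom_rep_c14500 with 16.7 ± 23.2 and M_dom_rep_c15945 with 12.7 ± 19.9 CPM. The members without counts were a YP1 contig of 80 bp and a yolk protein A contig of 88 bp.

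The eggshell proteins had more than 3 counts in fewer samples than the yolk proteins, in 1 to 3 of the 8 against 4 to 8. Vitelline membrane protein 26Ab, matched to *Drosophila yakuba* and a structural protein of the innermost eggshell layer in *Drosophila*, was read from M_dom_rep_c7018 (980 bp). It had 27.8 CPM in No.8, 15.3 in No.6, 2 counts in No.4 and 0 in the other 5 samples, so that No.8 was at least 96.4-fold above the lowest sample. Without No.8 the bound was 53.0. Defective chorion 1, a follicle cell protein needed for the assembly of the chorion in *Drosophila*, had 2 contigs, M_dom_c34273 (1309 bp) and M_dom_c21773 (926 bp). Together they had 20.7 CPM in No.8, 11.01 CPM in No.6, 15 counts or 1.42 CPM in No.4, 1 count in No.2 and 0 elsewhere, at least 71.7-fold, and at least 38.2-fold without No.8. Both proteins thus ranked the samples alike, with No.8 before No.6 and No.4.

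The chorion proteins s16 and s19, matched to the medfly *Ceratitis capitata*, belong to a group of genes that *Drosophila* follicle cells amplify and express late in egg development. Chorion s16, read from M_dom_c37 (661 bp), had 2768 counts or 252 CPM in No.8 and at most 3 counts in any other sample, at least 863-fold above the lowest. Chorion s19 had 1050 counts or 95.7 CPM in No.8, of which M_dom_rep_c6649 (806 bp) took 1032, and none in the other 7 samples, at least 327-fold. No.8 was thus the only sample with more than 3 counts of either protein.

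Set against the yolk protein counts of the same sample, the eggshell did not follow the yolk. The 4 eggshell proteins had 10.1 counts per 100 yolk protein counts in No.8 (9.77 to 10.4), 1.44 in No.6 (1.27 to 1.62) and 0.0571 in No.4 (0.0333 to 0.0914), although the yolk protein level of No.4 lay between those of the other samples. Vitelline membrane protein 26Ab and defective chorion 1 were alike in No.6 and No.8, with 0.837 and 0.707 counts of the former and 0.602 and 0.526 of the latter per 100 yolk protein counts. Chorion s16 and s19 made the difference between these samples, with 6.41 and 2.43 per 100 in No.8 and 0 of 18759 in No.6, with an exact interval up to 0.0197. In No.4 this interval reached 0.0124 for each. Vitelline membrane protein 26Ab had 0 counts per 100 in No.2 and No.5, with intervals up to 0.124 and 0.281, below the value of No.6. In No.1, No.3 and No.7 the intervals reached 1.08 to 5.04, and a ratio like that of No.6 was not detectable at this depth.

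**Figure D4:**
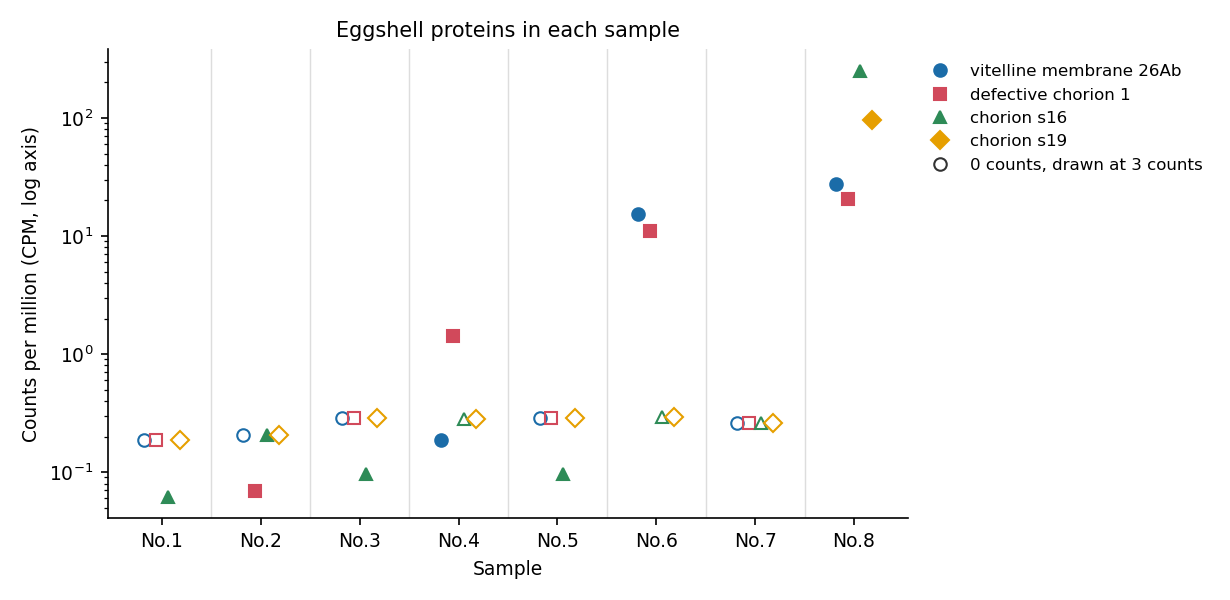
Level of the 4 eggshell proteins in each of the 8 samples, in CPM on a log axis, where open symbols mark 0 counts and are drawn at the CPM of 3 counts. Vitelline membrane protein 26Ab and defective chorion 1 are seen in No.6 and No.8 at 11.01 to 27.8 CPM, and the chorion proteins s16 and s19 rise above 3 counts only in No.8, at 252 and 95.7 CPM.

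The remaining members were close to the detection limit. The 4 contigs matched to vitellogenins, of a sturgeon, the chicken, a planthopper and a mosquito, had 0.0961 to 2.00 CPM together, with the highest level in No.2, and M_dom_rep_c15970, the sturgeon match, held 56 of their 64 counts. M_dom_c25873, matched to a vitelline envelope protein of an abalone, had at most 7 counts, in No.6. In No.1, No.3 and No.7 the vitellogenin matches, with 0.172 to 0.575 CPM, were at levels like those of the least counted yolk proteins. No contig name in the table holds a yolk protein or vitellogenin receptor, such as Yolkless, the oocyte receptor of *Drosophila*, so the receptor itself was not analysed here.

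Among the 27 members with a mean count of at least 5, 18 had all of No.2, No.4, No.6 and No.8 above all other samples, against 8.05% of the 23597 contigs with such a mean. These samples were set apart by the yolk protein sum itself, so nothing is read from that count. None had them all below, against 5.80%. A ratio of highest to lowest sample of at least 10 was found for 25 of the 27, against 20.2% of all contigs, and of at least 100 for 18 of the 27, against 1.21%. The median ratio was 273 in the members and 5.02 in all contigs, with lower counts set to 3. The topic was chosen because such contigs differed between the samples, so nothing is read from these ratios either.

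The machinery of endocytosis varied less across the samples than all contigs did at the median. Of 37 contigs named for clathrin and its adaptors, dynamin, Rab GTPases, vacuolar ATPases, lipophorin receptors and low density lipoprotein receptor adaptors, 27 had a mean count of at least 5, and their median ratio of highest to lowest sample was 2.58 against 5.02 in all contigs. Of these 27, 1 had the 4 samples with most yolk protein above the others, against 8.05% of all contigs, and none below, against 5.80%. It was M_dom_rep_c17680 of Rab11, which returns receptors to the cell surface. Its split was narrow, with 86 counts or 7.84 CPM in No.8 against 81 counts or 7.79 CPM in No.5. The other Rab11 contigs among the 27 did not split the samples in this way, so nothing is read from this 1 contig. The list also took in 1 contig of the transcription factor AP-2-alpha, which is no part of a coated pit. The lipophorin receptors, which take up lipid carriers and belong to the same family as yolk receptors, led the list. M_dom_rep_c13402 had 43.6 to 90.2 CPM and M_dom_rep_c15588 34.0 to 72.5 CPM, both highest in No.3 when scaled to totals. The TMM factor of No.3 was 1.21, so this rank depends on the scaling. Another lipophorin receptor contig, M_dom_rep_c19395, had 72.2 CPM in No.3 but 10.4 in No.1 and 8.35 in No.2.

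RNAs that nurse cells deposit in the oocyte were seen in the same samples as the yolk proteins, but in another order. *nanos*, needed for the posterior of the embryo and for germ cells, had 6 contigs with 92.7 CPM together in No.2, followed by No.4, No.8 and No.6 with 25.9, 19.6 and 4.48 CPM, and 0.192 to 1.21 CPM in the other samples. *bicoid*, the determinant of the anterior in higher flies, had 43.1 CPM in No.2, followed by No.8, No.4 and No.6 with 18.1, 6.98 and 4.97 CPM, and at most 2 counts elsewhere. No.2 was thus the highest of the 8 samples for both, although its 205 CPM of yolk proteins were the lowest among these 4. *nanos* had 45.1 counts per 100 yolk protein counts in No.2 and 0.245 to 0.923 in No.4, No.6 and No.8. *oskar*, which assembles the germ plasm in *Drosophila*, had 10, 18, 13 and 16 counts in No.2, No.4, No.6 and No.8, and at most 1 elsewhere. *staufen*, whose protein binds such RNAs but which other tissues also use, had 2.14 to 6.38 CPM and its lowest level in No.2.

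**Figure D5:**
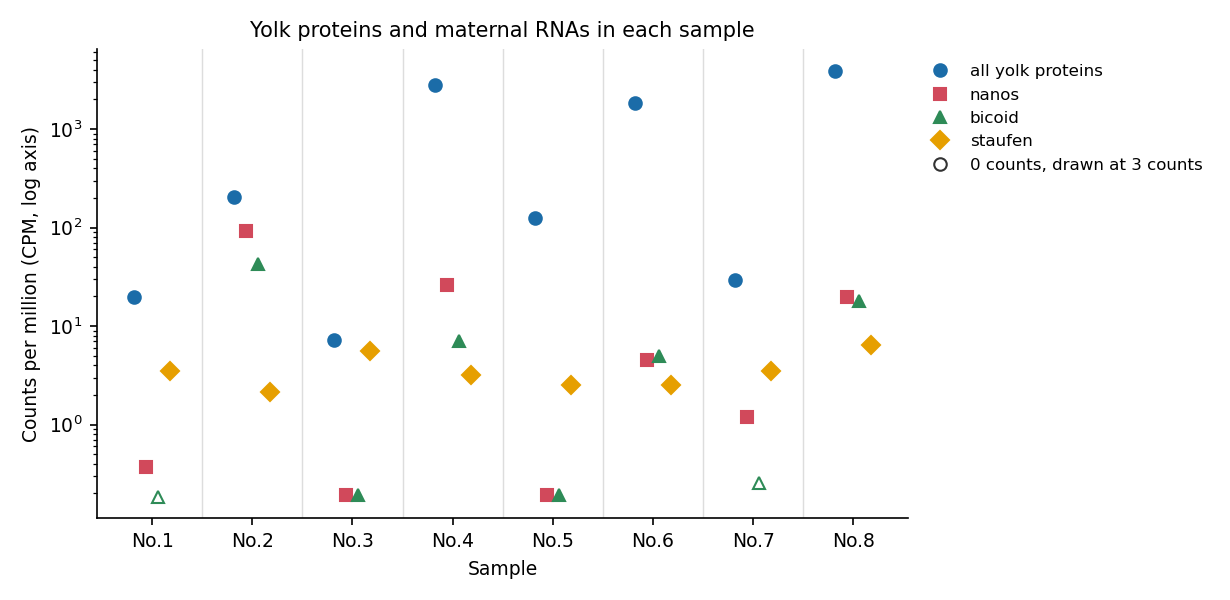
Sum of all yolk proteins and level of *nanos*, *bicoid* and *staufen* in each of the 8 samples, in CPM on a log axis, where open symbols mark 0 counts and are drawn at the CPM of 3 counts. *nanos* and *bicoid* are highest in No.2 at 92.7 and 43.1 CPM, where the yolk proteins are at 205 CPM, and *staufen* stays between 2.14 and 6.38 CPM in all samples.

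Of the 14 contigs in this oocyte and nurse cell list, 7 had a mean count of at least 5, and 5 of these had the 4 samples with most yolk protein above the others, against 8.05% of all contigs. These 5 contigs belong to 3 genes, with 3 of *nanos* and 1 each of *bicoid* and *oskar*, and the other 2 were of *staufen*. The median ratio of the 7 was 12.2. It was 311 for those whose mean count reached 50, which were only 1 contig of *nanos* and 1 of *bicoid*. The contigs with the most counts were M_dom_rep_c14481 of *nanos*, with 13.9 ± 25.1 CPM, and M_dom_rep_c12971 of *bicoid*, with 9.14 ± 14.9 CPM (SD, n = 8). What part the amount of ovary in a sample had in the yolk protein levels was not tested.

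Regulators that act on yolk genes in *Drosophila* were represented by 22 contigs, 15 of them with a mean count of at least 5. Of these, 2 had the 4 samples with most yolk protein above the others and 1 below, against 8.05% and 5.80% of all contigs, and their median ratio was 6.48. These shares are near those of all contigs. The list was matched by name and also took in GATA factors of slime moulds and a yeast, and Ecdysone-induced protein 63E. The shares and the median therefore do not describe yolk gene regulators alone. The contig below, M_dom_c10301, was matched to a slime mould. The contigs above were 2 of the 5 contigs of *transformer*, which directs female splicing of *doublesex*, and the other 3 did not split the samples in this way. M_dom_rep_c7144 of *transformer* had 12.4 CPM in No.2, 7.01 to 7.84 CPM in No.4, No.6 and No.8, and 3.60 to 5.65 in the others. The most counted contigs of the list, M_dom_rep_c17250 with 107 ± 75.4 CPM and M_dom_rep_c17602 with 28.2 ± 14.7 CPM, were matched to a GATA factor of a slime mould, and No.2 and No.4 had the lowest levels of both.

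Fat body proteins come from a tissue that makes yolk proteins. Of 34 contigs, 16 had a mean count of at least 5 and their median ratio was 19.4 against 5.02 in all contigs. None of the 16 had the 4 samples with most yolk protein all above or all below the others, against 8.05% and 5.80% of all contigs, and nothing is read from a count of 0 among 16. Hexamerins, storage proteins of insect blood, were high in No.4, No.6 and No.8, as the yolk proteins were, with 570.2, 2987 and 1374 CPM, but also in No.5 with 2219 CPM, and low in No.2 with 50.5 CPM. No.1, No.3 and No.7 had 17.4 to 53.1 CPM. The most counted contig, hexamerin F1 M_dom_rep_c16955, had 1942 CPM in No.5, where the yolk proteins together had 126 CPM. M_dom_rep_c5877 of transferrin, an iron carrier of the blood, had its highest level, 923 CPM, in No.3 and its lowest, 37.1 CPM, in No.7. The list also took in 1 contig of an electron-transferring flavoprotein. No other name of the eggshell list, such as femcoat or nudel, was found. The male list held 2 contigs, too few to describe male tissue, against 14 when whole annotations were matched and no names were removed. M_dom_rep_c35693 had 132 CPM in No.1, 72.2 in No.2 and 324 in No.8, and M_dom_c30698 had 3.08 to 7.08 CPM.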

How the data were processed

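A table of contigs by 8 samples of whole adult flies was analysed. The authors deposited raw counts, whole numbers of reads on each contig that had not been normalized, with the length of each contig in bp (used only for RPKM) and its name by best protein match. Scaled versions of the counts were also deposited and not used. Per the methods, contigs were assembled with Newbler and MIRA and named with Blast2GO. The sources used here name neither the program that made the counts nor its reads, and each total exceeds the number of reads that the methods describe. Reads counted on several contigs would enter a level more than once. The samples form 1 group by their labels.

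Members were grouped by the protein in their name, and their counts were summed and divided by the total (10266664 to 16115208 counts per sample). Ratios of highest to lowest sample carry exact Poisson intervals, and a sample at 0 was set to 3 counts, which gives a bound. Shares carry exact binomial intervals. Pairs of yolk proteins were tested with an exact sign-flip permutation test over samples, which was tested on simulated data. Members and lists were chosen with earlier results of these data known. Names were removed from the lists after matches to species or unrelated proteins had been seen. Named were, for each protein, its most counted contig and every contig with a mean of at least 10 CPM, the 2 most counted contigs of each of the 6 lists, and the 8 contigs most like the yolk and eggshell sums by Pearson r of log2(CPM + 0.5), among annotated contigs whose mean count reached 50. Other contigs were named after their values were seen. Alternatives concerned normalization (edgeR 4.0.16 TMM and DESeq2 1.42.0 size factors in R 4.3.3), the contigs and length taken for a protein, the floor, the pseudocount, count minimums and leaving out each sample. Other steps used Python 3.11.15, numpy 2.4.6, pandas 2.3.3, scipy 1.17.1 and matplotlib 3.10.9. Contig sequences were not analysed here.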

Additional observations from a re-analysis of the deposited data

Results flagged for a closer look

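A sample was compared with the rest of the 8 for 20 levels, of which 6 had 1 sample far from the others, that is, with a gap to the nearest sample above 0.526 of the whole range. Chance flags about 1 in 20 groups of normally distributed values, a rate not measured for skewed levels like these. Chorion s16 had 252 CPM in No.8 and 0.207 CPM in the next sample, and chorion s19 had 95.7 CPM in No.8 and 0 in the next. The sum of the eggshell proteins, which contains both, was 396 CPM in No.8 and 26.3 in No.6. Among the maternal RNAs, *nanos* had 92.7 CPM in No.2 and 25.9 in No.4, and *bicoid* 43.1 CPM in No.2 and 18.1 in No.8. The vitelline envelope match M_dom_c25873 had 0.682 CPM in No.6 and 0.189 in the next sample, a difference of 7 counts against 2.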

How the results depend on the processing

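No paired analysis was possible because the samples form 1 group. The ratios of highest to lowest sample that rest on a sample at 0 are bounds, and they moved with the scaling and the floor. With TMM they were 3862 for YP2, 532 for yolk protein A, 77.5 for vitelline membrane protein 26Ab, 57.7 for defective chorion 1, 796.2 for chorion s16 and 267 for chorion s19. With DESeq2 size factors they were 3921, 525, 79.7, 59.3, 797 and 274, in the same order. With a floor of 1 count they were 9775, 1421, 289, 215, 2590.0 and 982, and 4605 for the eggshell sum. The most counted contig alone gave 412 for yolk protein A, 816 for yolk protein B and 45.8 for defective chorion 1. The 816 of yolk protein B is a bound, since M_dom_rep_c11891 had 0 counts in No.1, No.3 and No.7. The 6255 of all contigs of yolk protein B is a ratio that rests on 1 count in No.1. Taking only the most counted contigs also moved the eggshell counts per 100 yolk protein counts to 0.0289 in No.4, 1.72 in No.6 and 13.9 in No.8.

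Of the 10 log2 ratios between yolk proteins, the most counted contigs turned A over B to 0.25, lost the call of YP2 over A (1.34) and gave one for YP2 over B (1.59). The longest contig as length gave calls for YP1 over YP2 (2.67) and YP2 over YP3 (-3.01), and 1 added count a call for YP2 over B (1.95). With a mean count of at least 50, 1099 contigs and 11 members had the 4 samples with most yolk protein above the others. The median ratio of the oocyte list was then 311, from only 1 contig of *nanos* and 1 of *bicoid*. With a mean count of at least 10, 1 of the 8 contigs most like the eggshell sum remained.

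Leaving out each sample in turn gave ratios of 554 to 7396 for YP1 (lowest without No.7), 3186 to 3627 for YP2, 381 to 527 for yolk protein A, 53.0 to 96.7 for vitelline membrane protein 26Ab, 38.2 to 72.0 for defective chorion 1, 198 to 547 for all yolk proteins (lowest without No.3) and 102 to 6389 for the eggshell sum (lowest without No.8, highest without No.7). The 6389 of the eggshell sum is not a bound but a ratio that rests on 1 count in No.1, whereas a sample at 0 was set to 3 counts. The log2 ratio of YP1 over YP3 lay between -0.43 and 0.77, with 0.23 without No.5 and 0.77 without No.7. YP2 over A lay between 2.62 and 3.27 and YP2 over B between 1.67 and 2.50, with the changed calls named beside these results. The ratios of YP3 and yolk protein B moved within their counting intervals, the bounds of chorion s16 and s19 stayed between 863 and 891 and between 327 and 332, and the other log2 ratios kept their direction and side of the threshold when a sample was left out.

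Depth limits the members under a mean count of 5 and every level of 1 to 3 counts. Chorion s16 and s19 gave no ratio without No.8, since 3 counts or fewer were left. No likeness to a receptor was computed, since no contig names one.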

Other observations

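Contigs whose levels were most like the yolk protein sum over the 8 samples, among 11191 annotated contigs, are given with Pearson r of log2(CPM + 0.5) as a description. The points of each r come from the same 8 libraries and totals. M_dom_c5043, matched to a saccharopine dehydrogenase domain protein of a tsetse fly and 1114 bp long, came first with r = 0.985. It had 0.0621 to 1.35 CPM in No.1, No.3, No.5 and No.7, 2.00 in No.2 and 9.53 to 19.7 in No.4, No.6 and No.8. No.8 was its highest sample, as for the yolk proteins, but No.6 came before No.4. M_dom_c20561 (r = 0.972), M_dom_c5222 (0.971), M_dom_c3378 (0.969), M_dom_c4531 (0.967) and M_dom_c26653 (0.957) carry only gene model numbers of *Drosophila* species. M_dom_c26653 reached 404 CPM in No.8 and 296 in No.6, more than any eggshell member. M_dom_c22593 (0.965), with 69.8 CPM in No.8, was matched to a hypothetical protein of the mould *Aspergillus flavus*. M_dom_rep_c14665 (0.964), matched to an antigen 5-related salivary protein of a biting midge, had 38.8 CPM in No.8, 39.8 in No.6 and 0 counts in No.1, No.3 and No.7.

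For the eggshell sum the closest contigs were less alike, and they were all highest in No.8. Of the 8, only 1 stayed among the closest when the minimum mean count was lowered to 10. M_dom_c30092, matched to CG16713 of *Drosophila melanogaster*, came first with r = 0.932 and had 2497 CPM in No.8 against 201 to 818 in the others. M_dom_rep_c7060 and M_dom_rep_c7181 (r = 0.894 and 0.889), both matched to a lectin alpha-subunit of *Lucilia sericata*, had 81.1 and 41.6 CPM in No.8, 22.4 and 10.4 in No.4, 16.9 and 4.09 in No.6 and at most 0.552 CPM elsewhere. M_dom_rep_c6345 (0.902), M_dom_rep_c11410 (0.871), M_dom_c168 (0.867), M_dom_rep_c16466 (0.866) and M_dom_rep_c7986 (0.852) had counts in every sample and their highest level in No.8. Their ratios of highest to lowest sample were only 4.21, 11.8, 1.82, 3.34 and 1.58, in the same order. The eggshell sum had a ratio of at least 1535, and r does not measure the size of a change. The most counted *bicoid* contig ranked 160 and the most counted *nanos* contig 347 by likeness to the yolk protein sum, with r of 0.74 and 0.68.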
